A study of Mus musculus with 8 samples.

Results

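The mature miRNAs numbered miR-297, miR-466, miR-467 and miR-669 were followed in mesenchymal stromal cells (MSCs) of mouse pancreas and mouse fat. Members were all mature names of the deposited small RNA table that carry 1 of these numbers, with any letter, copy number or arm. The rule used names only and no measured value. It gave 69 of the 1624 mature names: 6 of miR-297, 29 of miR-466, 11 of miR-467 and 23 of miR-669. By arm, 32 names end in 5p, 31 end in 3p and 6 carry no arm.

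Sequencing covered 4 libraries of pMSCs, the MSCs of the pancreas (libraries 5 to 8), and 4 libraries of iwatMSCs, the MSCs of inguinal white adipose tissue (libraries 13 to 16). All came from untreated male C57BL/6J mice, aged 8 weeks per the study's methods, on standard diet. Cells were sorted as CD45-, CD31- and SCA1+, pooled from 3 to 5 mice and grown in culture for 4 days, so the libraries describe expanded cells and not the tissues. Both tissues were taken from the same mice, but the labels do not tie a library to its animals, and the p-values measure the spread between these libraries. In bulk RNA, fewer cells of a type and less RNA per cell cannot be told apart.

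MicroRNAs are cut from hairpin precursors, each of which can give a product from its 5p and its 3p side, and they pair with messenger RNAs mainly through the seed, bases 2 to 8. Most hairpins of these numbers lie in 1 intron of Sfmbt2, a Polycomb gene that is imprinted and expressed from the paternal allele in the mouse placenta lineage. This rodent cluster arose by repeated copying of a short repeat-rich unit, so many of its miRNAs are close relatives of each other, and in mice it is best known for its role in the placenta.

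In the GENCODE M21 annotation of GRCm38, 71 of 81 hairpin genes of these numbers lie within Sfmbt2 (chromosome 2, 10370510 to 10595253, plus strand). They span 51.6 kb, from 10466663 to 10518279, and all 71 lie in intron 11 of the transcript Sfmbt2-205 (10461473 to 10523944). None overlaps an Sfmbt2 exon. Inside the gene are 5 of 6 miR-297 hairpins, 23 of 28 miR-466 hairpins, 14 of 17 miR-467 hairpins and 29 of 30 miR-669 hairpins. Some names stand for many copies: 10 genes carry the name miR-467a, 12 carry miR-669a and 8 carry miR-466b. A read of such a name cannot be placed at 1 copy. The build used for the reads is not given in the sources used here, so these places are those of the annotation and not of the reads.

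RefSeq sequences (GRCm38.p6) were at hand for 4 of the 69 members. They are shown because these 4 hold runs of alternating bases. No sequence was at hand for a member inside Sfmbt2. The capitals mark the seed, bases 2 to 8.
miR-466i-3p: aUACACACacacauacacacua
miR-466k: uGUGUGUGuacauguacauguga
miR-466j: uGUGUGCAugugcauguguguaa
miR-467h: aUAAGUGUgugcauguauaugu

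These 4 members have 4 different seeds, and all 4 lie outside Sfmbt2, on the plus strand. miR-466i-3p is at chr13:17747552-17747573, miR-466k at chr3:85467396-85467418, miR-466j at chr10:60960802-60960824 and miR-467h at chr9:115381898-115381919. The longest run of alternating C and A in miR-466i-3p is 11 bases. The longest runs of alternating U and G are 9 bases in miR-466k and 7 bases each in miR-466j and miR-467h. miR-466i-3p had 7, 9, 3 and 11 reads in pMSCs libraries 5 to 8, against 10, 4, 57 and 18 reads in iwatMSCs libraries 13 to 16. Its high value was in library 15, and the tissues overlapped. miR-466k had 2, 6, 4 and 7 reads in pMSCs, against 2, 4, 4 and 2 in iwatMSCs. miR-466j had 0 reads in pMSCs and 2, 0, 1 and 0 in iwatMSCs, and miR-467h had 1 read in each tissue, so neither could be compared.

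Each library held 20793619 to 25824261 small RNA reads of all types. Mature miRNAs took 7789990 to 10538022 reads in pMSCs and 7956309 to 8830432 in iwatMSCs. Epithelial marker miRNAs (the miR-200 family) were all higher in pMSCs, 5 of 5 called by edgeR (adjusted p under 0.05), with summed levels of 235 to 584 CPM in pMSCs and 12.3 to 20.05 in iwatMSCs. Acinar markers were higher in 4 of 4, with 10.7 to 56.9 CPM in pMSCs and 0.330 to 0.738 in iwatMSCs, and islet markers in 2 of 3, with 1043 to 2110 CPM in pMSCs and 1039 to 1748 in iwatMSCs. Of 10 tested endothelial, haematopoietic and muscle markers edgeR called 0 and DESeq2 2 haematopoietic ones, with 4 at an unadjusted edgeR p under 0.05. Haematopoietic markers summed to 42.3 to 87.6 CPM in pMSCs and 58.2 to 117 in iwatMSCs. The 6 stromal markers were abundant in both tissues, at 58713 to 72518 CPM in pMSCs and 36755 to 46953 in iwatMSCs, ranges that do not overlap. Of these 6, edgeR called 3 higher in pMSCs and 0 lower, DESeq2 called 5, and 6 had an unadjusted edgeR p under 0.05. No marker list summed to 0 in any library. The part of other cell types in the values given here was not tested.

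The 4 numbers made up a small share of the miRNAs of these cells, in both tissues. Together they took 6863, 7996, 9420 and 10098 reads in pMSCs, or 0.0881%, 0.0759%, 0.102% and 0.108% of mature reads. In iwatMSCs they took 9584, 8492, 12582 and 12125 reads, or 0.111%, 0.0962%, 0.146% and 0.152%. Levels are given as CPM, read counts brought to a common library total with edgeR's TMM factors. The summed level was 978 ± 115 CPM in pMSCs and 1193 ± 163 CPM in iwatMSCs (SD, n = 4 each). The tissues overlapped: the pMSCs libraries lay between 813 and 1065 CPM and the iwatMSCs libraries between 1045 and 1335 CPM.

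Within the 69 names the level was concentrated on the 5p side of miR-467. miR-467a-5p alone held 37.2% of the summed CPM and stood at rank 104 of all mature names by mean CPM. miR-467c-5p stood at rank 172, miR-669b-5p at 204 and miR-297a-5p at 208. These 4 names held 62.2% of the level and the 12 most abundant held 87.1%. At the other end, 40 names reached a mean of 1 CPM in either tissue and 19 reached 10 CPM. No mature reads were assigned to 4 names (miR-466f-5p, miR-467b-3p, miR-467c-3p and miR-669g). Of the 69, 53 averaged 1 read or more in either tissue and were tested. The other 12 names with mature reads had at most 4 over all libraries.

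Since related names can take each other's reads, the reads of each number and arm were first summed and fitted with the rest of the table, 1197 features in all. Of 9 sums tested, 0 were called higher or lower in pMSCs by edgeR at an adjusted p under 0.05, beside 3.01% of all features called higher and 3.17% called lower. At an unadjusted p under 0.05 there was 1 sum (miR-467 3p), beside 18.4% of all features. DESeq2 called 0 of the 8 sums to which it gave an adjusted p, beside 6.99% of features called higher and 5.59% called lower, and had 1 at an unadjusted p under 0.05, beside 16.7%. All 9 log2 fold changes of pMSCs over iwatMSCs were below 0, as were 54.1% of all features, but that of miR-466 with no arm (-0.019) was above 0 with DESeq2's size factors. Their median was -0.39, against -0.085 over all features.

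The 5p side of miR-467 was the most abundant sum. It stood at 604, 507, 588 and 635 CPM in pMSCs libraries 5 to 8, against 637, 623, 672 and 837 CPM in iwatMSCs libraries 13 to 16. The lowest iwatMSCs library was below the highest pMSCs library, so the tissues overlapped slightly. The log2 fold change was -0.28 (SE 0.17, edgeR adjusted p = 0.390), and without library 16, the highest, it was -0.14.

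The 5p side of miR-669 came next, with 204, 159, 241 and 197 CPM in pMSCs and 215, 230, 269 and 238 CPM in iwatMSCs. Only pMSCs library 7 lay within the iwatMSCs range. The log2 fold change was -0.27 (SE 0.19, edgeR adjusted p = 0.447), and -0.16 without library 6. The 5p side of miR-297 was at 68.3, 33.1, 99.9 and 93.6 CPM in pMSCs, against 76.1, 76.9, 81.9 and 103 CPM in iwatMSCs. The pMSCs libraries spread widely here, with library 6 lowest, and the log2 fold change was -0.21 (SE 0.34, edgeR adjusted p = 0.771), and 0.045 without library 6. The 5p side of miR-466 was at 32.5, 19.7, 36.7 and 31.5 CPM in pMSCs, against 36.0, 38.0, 34.9 and 46.1 CPM in iwatMSCs. Again library 6 was lowest and 1 pMSCs library reached into the iwatMSCs range, with a log2 fold change of -0.39 (SE 0.25, edgeR adjusted p = 0.402) that was -0.22 without library 6.

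The miR-466 names with no arm gave the flattest sum. They stood at 31.5, 31.5, 41.0 and 23.3 CPM in pMSCs, against 36.0, 27.9, 30.03 and 32.0 CPM in iwatMSCs, with a log2 fold change of -0.019 (SE 0.23, edgeR adjusted p = 0.971). The pMSCs values lay on both sides of the iwatMSCs range.

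The 3p sums differed from the 5p sums in that a single iwatMSCs library stood far above the others. The 3p side of miR-466 was at 30.5, 50.0, 48.4 and 45.2 CPM in pMSCs, against 44.9, 36.0, 185 and 53.2 CPM in iwatMSCs. The 3p side of miR-467 was at 5.18, 5.39, 2.94 and 5.39 CPM in pMSCs, against 4.31, 4.67, 28.5 and 8.47 CPM in iwatMSCs. The 3p side of miR-669 was at 11.8, 6.91, 5.88 and 16.0 CPM in pMSCs, against 9.61, 7.75, 32.3 and 14.8 CPM in iwatMSCs. In all 3 sums the high library was library 15. The other iwatMSCs libraries overlapped the pMSCs range in each.

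The log2 fold changes of these 3p sums over all 8 libraries were -0.86 (SE 0.47) for miR-466, -1.28 (SE 0.56) for miR-467 and -0.67 (SE 0.47) for miR-669, with edgeR adjusted p of 0.320, 0.269 and 0.459. Without library 15 they were -0.040, -0.30 and -0.090, with adjusted p of 0.959, 0.672 and 0.936 in the same test. The 3p side of miR-297 had only 1, 0, 1 and 2 reads in pMSCs and 1, 0, 6 and 0 in iwatMSCs, the 6 again in library 15, so its log2 fold change of -0.63 (SE 1.28) rests on few reads and was 1.31 without that library.

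**Figure D1:**
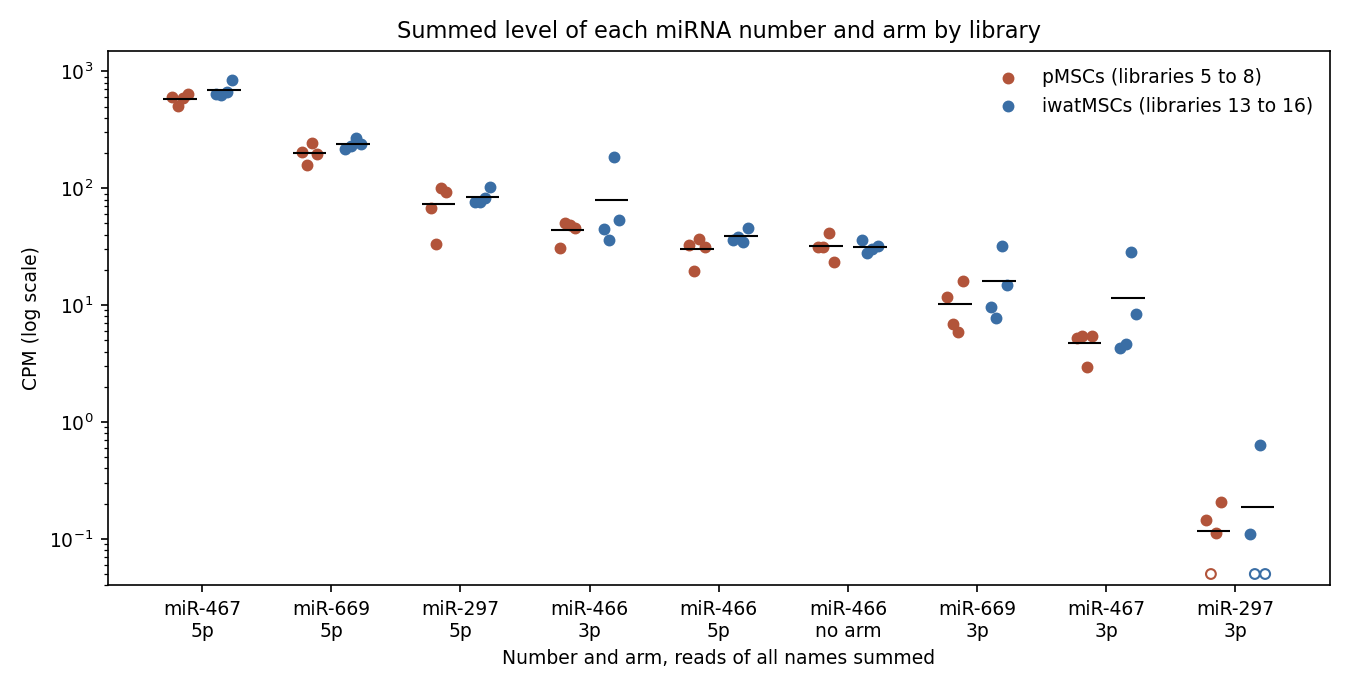
CPM (log axis) of each number and arm sum in each library, pMSCs left and iwatMSCs right of each pair, with a black line at the mean of 4 libraries and open circles on the lower edge for libraries with 0 reads. The tissues overlap in every sum, and in the 3p sums of miR-466, miR-467 and miR-669 library 15 stands above the other iwatMSCs libraries, at 185, 28.5 and 32.3 CPM.

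The arms split differently in library 15. The 3p names took 4.82%, 7.67%, 5.38% and 6.38% of the family's reads in pMSCs libraries 5 to 8. In iwatMSCs they took 5.57% in library 13, 4.64% in library 14, 18.5% in library 15 and 5.74% in library 16. The 95% Wilson interval of library 15 was 17.8% to 19.2%, while the highest bound of any other library was 8.27%, that of pMSCs library 6. These intervals cover counting error only.

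The number of 3p reads shows the same split. There were 331, 613, 507 and 644 in pMSCs, against 534, 394, 2326 and 696 in iwatMSCs, while 5p reads in library 15 (9973) lay between those of libraries 13 (8724) and 16 (11138). Of 18 family 3p names with at least 10 reads over all libraries, 12 (66.7%) had their highest CPM in library 15, against 3 of 29 family 5p names (10.3%). Among other 3p names the share was 21.3%, and among other 5p names 17.2%. Over all 1124 mature names it was 20%. These shares were chosen after the library was seen and carry no test.

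Reads that the deposited table classes as hairpin, listed by arm name in rows apart from the mature ones, showed the high 3p share in the same library. Their 3p share was 8.26%, 13.0%, 6.43% and 10.8% in pMSCs, against 8.61%, 7.06%, 29.6% and 9.55% in iwatMSCs. All 3p hairpin rows together had 263, 500, 275 and 456 reads in pMSCs, against 388, 281, 1816 and 519 reads in iwatMSCs. Library 15 was again the only one apart, and libraries 13, 14 and 16 had at most 519 reads.

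**Figure D2:**
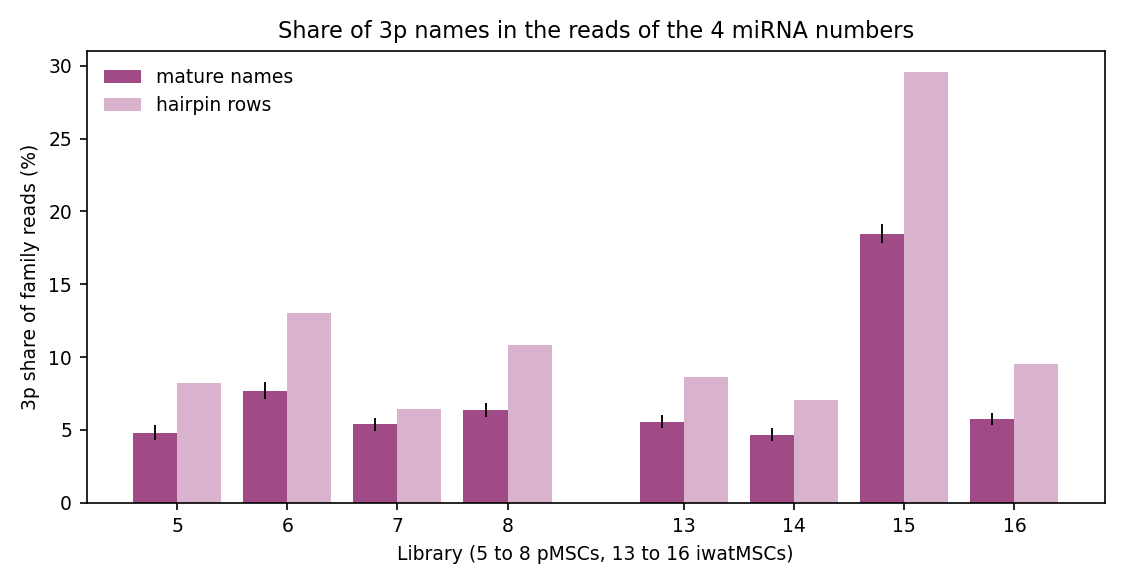
Share (%) of the 3p names in the reads of miR-297, miR-466, miR-467 and miR-669, pMSCs libraries left and iwatMSCs libraries right, for mature names (dark bars, with 95% Wilson intervals) and for hairpin rows (pale bars). Library 15 stands apart in both, at 18.5% and 29.6%, while the other 7 libraries lie between 4.64% and 7.67% for mature names.

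Taken name by name, edgeR called 1 of the 53 tested members higher in pMSCs, miR-466c-3p, and 0 lower, beside 3.46% of all 1241 tested mature names called higher and 2.98% called lower. At an unadjusted p under 0.05 there were 6 members, beside 18.3% of all tested names. DESeq2 gave an adjusted p to 47 members and called the same member higher and 2 lower, miR-466b-3p and miR-466m-5p. Of the 965 names to which it gave an adjusted p, it called 7.46% higher and 6.01% lower. At an unadjusted p under 0.05 it had 8 members, beside 16.7% of all names. Of the 53 log2 fold changes 42 were below 0, as were 53.3% of all names, and their median was -0.34, against -0.068 over all names. By arm the medians were -0.29 for 29 5p names (24 below 0) and -0.77 for 21 3p names (17 below 0). In 3 members the tissues did not overlap, all with pMSCs below iwatMSCs (miR-466i-5p, miR-466m-5p and miR-669h-5p), beside 6.77% of all tested names. None had pMSCs above, beside 6.93%.

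**Figure D3:**
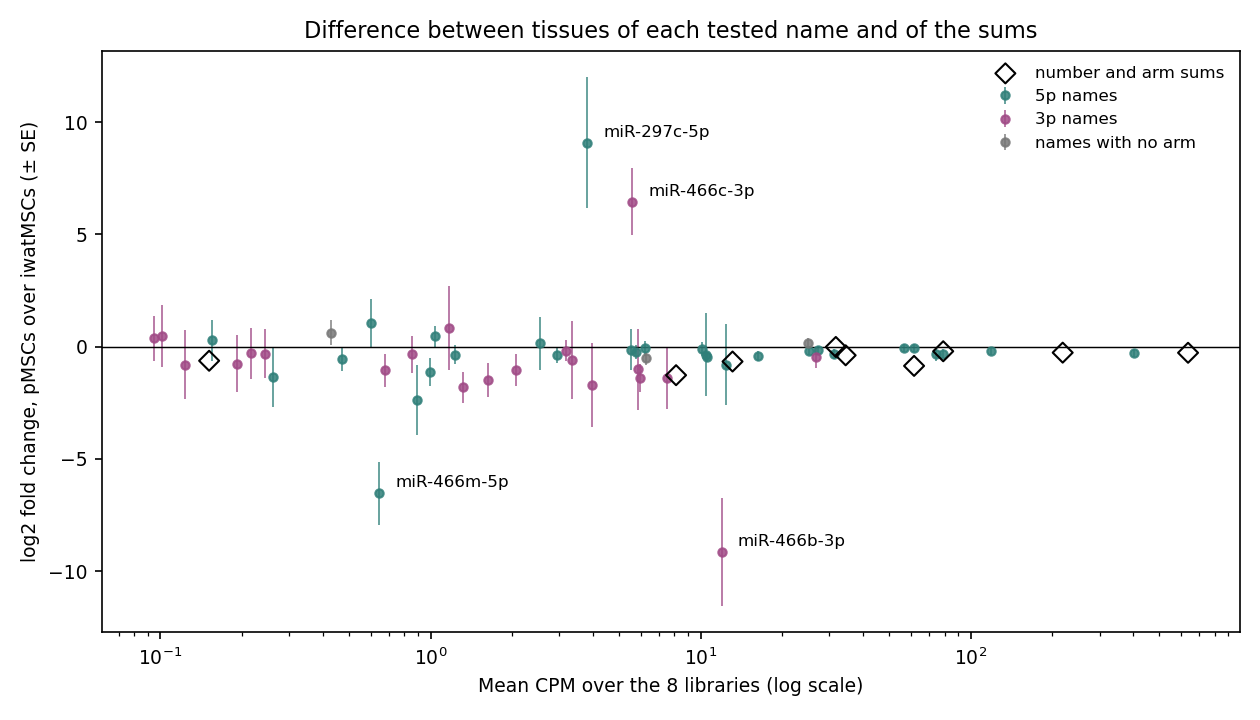
log2 fold change of pMSCs over iwatMSCs (± SE) of each of the 53 tested names against its mean CPM (log axis), coloured by arm, with the 9 sums as open diamonds. The 12 most abundant names lie between -0.49 and 0.14 and the sums between -1.28 and -0.019, and the names far from 0 are miR-297c-5p (9.08), miR-466c-3p (6.46), miR-466m-5p (-6.53) and miR-466b-3p (-9.15).

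The most abundant names, which came mostly from the 5p side, had small fold changes between the tissues. Of the 12 with the highest mean CPM, all above 16 CPM, 11 had a negative log2 fold change, and the range was -0.49 to 0.14 (edgeR adjusted p of 0.322 to 0.881). miR-467a-5p had 2575, 3117, 3130 and 3971 reads in pMSCs, against 3706, 3136, 4075 and 4983 in iwatMSCs. It averaged 363 ± 39.4 CPM in pMSCs and 444 ± 72.0 CPM in iwatMSCs (SD, n = 4 each), a log2 fold change of -0.29 (SE 0.16), and the tissues overlapped. Without library 16 it was -0.16.

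The log2 fold changes of the related miR-467 names were also small. miR-467c-5p had 792, 1003, 1110 and 1013 reads in pMSCs, against 937, 974, 1172 and 1454 in iwatMSCs, with a log2 fold change of -0.18 (SE 0.17), and -0.047 without library 16. miR-467e-5p averaged 55.5 ± 11.8 CPM in pMSCs and 58.2 ± 4.73 CPM in iwatMSCs (log2 fold change -0.069, SE 0.20). This was among the flattest of the abundant names, and its sign depended on library 6. miR-467d-5p averaged 27.6 ± 6.03 CPM in pMSCs and 34.7 ± 7.10 CPM in iwatMSCs (log2 fold change -0.33, SE 0.23). miR-467b-5p averaged 25.7 ± 3.96 CPM in pMSCs and 28.8 ± 4.19 CPM in iwatMSCs (log2 fold change -0.16, SE 0.20, and -0.069 without library 6).

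Among the miR-669 names, miR-669b-5p was the most abundant, with 463, 509, 843 and 649 reads in pMSCs and 731, 673, 908 and 808 in iwatMSCs. Library 7 lay within the iwatMSCs range, and the log2 fold change was -0.31 (SE 0.20, edgeR adjusted p = 0.431). It was -0.18 without library 6 and -0.53 without library 7. miR-669l-5p averaged 60.3 ± 8.97 CPM in pMSCs and 62.8 ± 4.14 CPM in iwatMSCs (log2 fold change -0.059, SE 0.17), and miR-669o-5p 23.6 ± 2.86 CPM in pMSCs and 26.9 ± 1.51 CPM in iwatMSCs (log2 fold change -0.19, SE 0.17, and -0.11 without library 6). miR-669f-5p had 12.2, 13.8, 17.0 and 12.7 CPM in pMSCs, against 18.1, 15.7, 22.5 and 18.5 CPM in iwatMSCs, and only library 7 reached into the iwatMSCs range. It averaged 13.9 ± 2.13 CPM in pMSCs and 18.7 ± 2.80 CPM in iwatMSCs, a log2 fold change of -0.43 (SE 0.21, edgeR adjusted p = 0.322).

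miR-297a-5p had 67.3, 31.8, 84.4 and 76.7 CPM in pMSCs, against 75.2, 75.3, 80.9 and 101 CPM in iwatMSCs. Its log2 fold change was -0.35 (SE 0.29), and libraries 7 and 8 lay within the iwatMSCs range. It was -0.12 without library 6, the lowest, and -0.53 without library 7. The partner strand miR-297a-3p was all but absent, with 1, 0, 0 and 2 reads in pMSCs and 0, 0, 6 and 0 in iwatMSCs.

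In miR-466, a number with many reads on both arms, miR-466h-3p was the most abundant 3p name. It had 84, 230, 313 and 178 reads in pMSCs, against 193, 165, 575 and 207 in iwatMSCs, with a log2 fold change of -0.49 (SE 0.45) over all 8 libraries and 0.058 without library 15. miR-466g, which carries no arm, had 186, 262, 290 and 179 reads in pMSCs, against 260, 156, 222 and 212 in iwatMSCs. It was the only one of the 12 abundant names with a log2 fold change above 0 (0.14, SE 0.23), and this was -0.030 without library 7. miR-467d-3p, the most abundant 3p name of miR-467, had 25, 37, 19 and 34 reads in pMSCs, against 27, 33, 203 and 54 in iwatMSCs. Its log2 fold change was -1.40 (SE 0.61, edgeR adjusted p = 0.267) and -0.41 without library 15.

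The study paired 5 members with predicted target messenger RNAs, having chosen them on these same libraries: miR-466c-3p, miR-466d-5p, miR-466f, miR-466i-5p and miR-669b-5p. miR-466i-5p, the most abundant 5p name of miR-466, had 62, 77, 92 and 80 reads in pMSCs, against 125, 111, 103 and 98 in iwatMSCs. Its libraries did not overlap in CPM, at 8.86 ± 1.12 CPM in pMSCs and 12.3 ± 1.66 CPM in iwatMSCs (SD, n = 4 each). The log2 fold change of -0.47 (SE 0.21) did not pass the test used here (edgeR adjusted p = 0.275). miR-466f had 31, 42, 69 and 39 reads in pMSCs, against 62, 67, 56 and 77 in iwatMSCs. Library 7 was the high pMSCs library and lay within the iwatMSCs range. Its log2 fold change was -0.52 (SE 0.29, edgeR adjusted p = 0.340), and without library 7 it was -0.84 (SE 0.28, edgeR adjusted p = 0.184). miR-466d-5p had only 2 to 5 reads in a pMSCs library and 3 to 6 in an iwatMSCs library, with a log2 fold change of -0.56 (SE 0.54). Without library 7 the unadjusted edgeR p was 0.040 for miR-466i-5p, 0.016 for miR-466f and 0.025 for miR-669b-5p. It was 0.20 for miR-466d-5p and 1.3e-05 for miR-466c-3p, and only miR-466c-3p passed after adjustment.

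The single call, miR-466c-3p, came from a name that was either well covered or empty. It had 78, 151, 0 and 169 mature reads in pMSCs libraries 5 to 8, against 0, 1, 3 and 0 in iwatMSCs libraries 13 to 16. Its hairpin row had 12, 85, 1 and 28 reads in pMSCs, against 6, 3, 22 and 23 in iwatMSCs, so there the tissues overlapped. The log2 fold change of the mature reads was 6.46 (SE 1.50, edgeR adjusted p = 0.035), although pMSCs library 7 had no mature read and overlapped the iwatMSCs. Without library 7 it was 6.86 (SE 0.74, edgeR adjusted p = 0.00113), and then the tissues did not overlap. In that set of 7 libraries it was again the only member called, of 52 tested, beside 2.65% of 1244 names called higher and 2.73% called lower. The call was lost when any other single library was left out, with edgeR adjusted p of 0.066 without library 5, 0.072 without library 6, 0.070 without library 8, 0.086 without library 13, 0.082 without library 14, 0.058 without library 15 and 0.116 without library 16.

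In the libraries where miR-466c-3p had few or no mature reads, its relatives held mature reads. miR-466b-3p had 0, 1, 0 and 0 reads in pMSCs, against 0, 2, 726 and 166 in iwatMSCs. miR-466p-3p had 0, 0, 65 and 0 reads in pMSCs, against 131, 80, 1 and 0 in iwatMSCs. In each of the 8 libraries a single name of these 3 thus held nearly all of their reads. This was miR-466c-3p in libraries 5, 6 and 8, miR-466p-3p in libraries 7, 13 and 14, and miR-466b-3p in libraries 15 and 16.

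Summed over the 3 names, the reads were 78, 152, 65 and 169 in pMSCs, against 131, 83, 730 and 166 in iwatMSCs. The tissues overlapped in this sum, and the level was 12.9 ± 4.53 CPM in pMSCs and 30.1 ± 31.7 CPM in iwatMSCs (SD, n = 4 each). With miR-466a-3p and miR-466e-3p added, the reads were 113, 228, 99 and 224 in pMSCs and 184, 111, 1020 and 231 in iwatMSCs. Only library 15 stood apart. These sums were put together after the values were seen, and no test was run on them.

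miR-466b-3p alone had a log2 fold change of -9.15 (SE 2.41, edgeR adjusted p = 0.060), which rests on 2 of 4 iwatMSCs libraries. It passed in edgeR without library 13 (adjusted p = 0.018) or without library 14 (adjusted p = 0.030). In these libraries miR-466p-3p held nearly all reads of the 3 names. miR-466p-3p had a log2 fold change of -1.72 (SE 1.88) over 8 libraries and -8.82 (SE 3.09, edgeR adjusted p = 0.237) without library 7. Names of 1 group thus gave fold changes of opposite sign while their sum overlapped.

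The miR-669 names showed the same pattern without a split by tissue. miR-669a-5p had 1, 125, 206 and 0 reads in pMSCs, against 196, 0, 389 and 2 in iwatMSCs. miR-669p-5p had 121, 0, 1 and 186 reads in pMSCs, against 0, 187, 0 and 220 in iwatMSCs. Each library had 1 of the names and at most 2 reads of the other. Their sum was 122, 125, 207 and 186 reads in pMSCs, against 196, 187, 389 and 222 in iwatMSCs, so it varied much less among the libraries of a tissue than either name did.

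**Figure D4:**
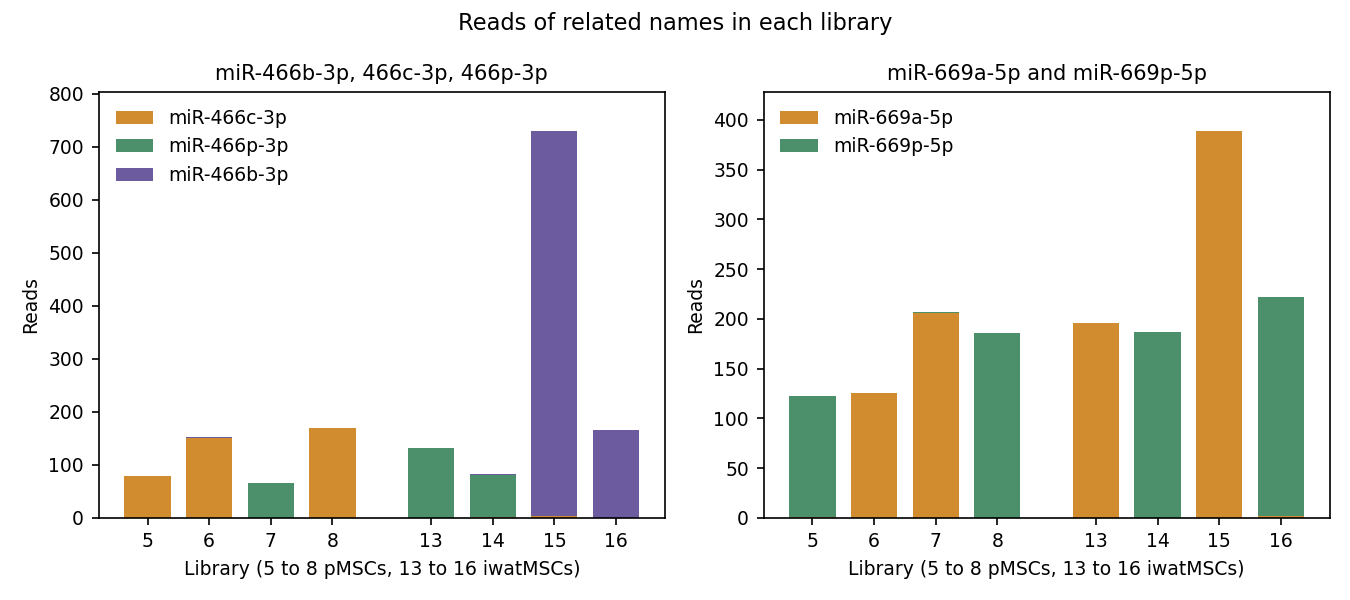
Deposited reads in each library, pMSCs (5 to 8) left and iwatMSCs (13 to 16) right, stacked for miR-466c-3p, miR-466p-3p and miR-466b-3p (left panel) and for miR-669a-5p and miR-669p-5p (right panel). Each bar is almost wholly of 1 name, and the tallest bars are those of library 15, at 730 and 389 reads.

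On the 3p side, miR-669a-3p had 0, 49, 0 and 101 reads in pMSCs and 0, 48, 242 and 0 in iwatMSCs. miR-669o-3p had 55, 0, 25 and 0 reads in pMSCs and 58, 0, 0 and 87 in iwatMSCs, filling exactly the libraries in which miR-669a-3p was empty. Together they had 55, 49, 25 and 101 reads in pMSCs, against 58, 48, 242 and 87 in iwatMSCs. Apart from library 15, the iwatMSCs values lay within the pMSCs range. In the 5p names of miR-466, miR-466o-5p had 23, 15, 29 and 25 reads in pMSCs and 0, 0, 31 and 58 in iwatMSCs, while miR-466b-5p had 0, 0, 6 and 4 reads in pMSCs and 27, 25, 0 and 0 in iwatMSCs. Their sum of 23, 15, 35 and 29 reads in pMSCs and 27, 25, 31 and 58 in iwatMSCs again overlapped.

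Among the 53 tested names, 2 had no mature reads in any library of a tissue. miR-297c-5p had 0, 0, 126 and 156 reads in pMSCs and 0 in every iwatMSCs library. Against a floor of 3 reads over the 4 iwatMSCs libraries this is at least 95.2-fold higher in pMSCs, yet it rests on libraries 7 and 8 and did not pass the test (edgeR adjusted p = 0.175). The floor covers counting error only. The hairpin row of miR-297c-5p had 0, 4, 2 and 0 reads in pMSCs, against 3, 0, 3 and 2 in iwatMSCs. With the mature reads of miR-297a-5p added to its own, the level was 67.3, 31.8, 98.7 and 92.9 CPM in pMSCs. In iwatMSCs it was 75.2, 75.3, 80.9 and 101 CPM, so the tissues overlapped. miR-466m-5p had 0 reads in all pMSCs libraries, against 1, 10, 11 and 24 in iwatMSCs. Against the same floor it was at least 15.1-fold lower in pMSCs, with an edgeR adjusted p of 0.052 over 8 libraries and 0.018 without library 13. For miR-669h-5p, the third name without overlap, reads were 5, 1, 11 and 4 in pMSCs and 13, 12, 12 and 12 in iwatMSCs, with a log2 fold change of -1.15 (SE 0.62, edgeR adjusted p = 0.322).

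Names well covered in some libraries and nearly empty in others were counted within tissues. The count did not ask whether a related name held the reads instead. For miR-297c-5p, which is in the count, miR-297a-5p had 747 and 740 reads in libraries 7 and 8, where miR-297c-5p had its reads. Of 35 members that reached 30 reads in some library, 11 (31.4%) had at most 2 reads in another library of the same tissue. Among all other mature names it was 35 of 571 (6.13%), but these were not matched to the members for abundance. The 11 were 5 of 8 3p names of miR-466, 2 of 3 3p names of miR-669, 2 of 8 5p names of miR-669, 1 of 2 5p names of miR-297 and 1 of 5 5p names of miR-466. None of the 5 5p and 2 3p names of miR-467 was among them. The limits of 30 and 2 reads were set after the values were seen.

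The deposited TPM of these members followed the reads in 7 libraries and not in library 7. Where a name had reads in a library, the authors' TPM was never above the read count. In the other libraries 37 to 47 members had a TPM above 1. In pMSCs library 7 all 48 members with reads had a TPM of exactly 1, among them miR-467a-5p with 3130 reads. The pMSCs means that the study's target tables give for 58 names, 5 of them members, equalled means of the deposited TPM (to a relative difference of 1e-04) only when library 7 was left out, so the study's own set held 3 pMSCs libraries. The study's methods state that an outlier sample was left out of the small RNA data, without naming it. Read counts of library 7 were in the range of the others, and it was kept here.

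**Figure D5:**
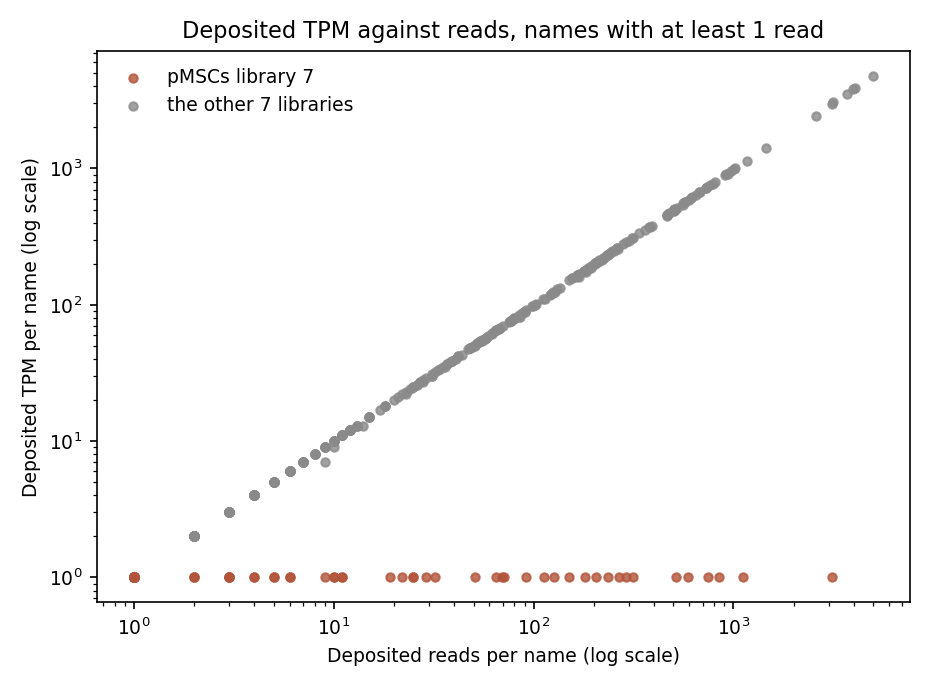
Deposited TPM against deposited reads (both log axes) of every member with at least 1 read, for pMSCs library 7 and for the other 7 libraries. In library 7 all 48 points lie at a TPM of 1, while in the other libraries TPM rises along with the reads.

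Seeds outside the 4 numbers could be compared only with those of the 4 members with a RefSeq sequence. The seeds of all other members were not compared. Of 1163 other mature names with a RefSeq sequence, 1 shared a seed with these 4 (miR-668-5p, log2 fold change -0.30, SE 0.38). A run of at least 8 bases in which U and G alternate was held by 6. Of these 6, edgeR called 1, miR-672-5p, which was lower in pMSCs. It had 17.9, 12.7, 17.5 and 13.3 CPM in pMSCs, against 41.5, 51.7, 65.6 and 66.3 CPM in iwatMSCs, without overlap (log2 fold change -1.87, SE 0.23, adjusted p = 0.000929). miR-574-5p, by far the most abundant of them, had a log2 fold change of 0.10 (SE 0.27).

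Other imprinted or stem cell miRNA loci were counted in the same fit, beside the 3.46% of all names called higher and 2.98% called lower. Of miRNAs hosted by the imprinted loci H19, Igf2, Gnas and Mest, 1 of 10 was higher in pMSCs and 0 lower by edgeR (2 at an unadjusted p under 0.05), and DESeq2 called 1. Of those antisense to Rtl1, 0 of 10 were called by edgeR (0 at an unadjusted p under 0.05), and of the Mirg cluster 0 of 41 (2 unadjusted), both from the imprinted Dlk1-Dio3 region. DESeq2 called 0 in both. The miR-290 cluster of embryonic stem cells was near the limit of detection, with 4 of 12 names tested, 0 called by edgeR (1 at an unadjusted p under 0.05) or by DESeq2, and a summed level of 1.01 to 2.15 CPM in pMSCs and 0.492 to 1.76 CPM in iwatMSCs, far below that of the members.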

How the data were processed

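Small RNA was measured in 4 pMSCs and 4 iwatMSCs libraries of sorted and cultured cells from pooled mice. The read count per small RNA name was made by the authors (BGI, with UMIs in the library preparation and Bowtie2 named without a version) and is used as deposited. The score that the authors call TPM is deposited beside it and was used only in alternatives. Genome build and miRBase release are not given in the sources used here.

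Mature names averaging 1 read or more in either tissue entered edgeR 4.0.16 (TMM, quasi-likelihood F test, two-sided, tissue only) in R 4.3.3, with Benjamini-Hochberg adjustment over all tested names and calls at 0.05. An approximate SE was taken as the absolute log2 fold change divided by the root of F. Sums replaced their members and were fitted anew with their own TMM factors, while all printed CPM are on the scale of the names. Alternatives were DESeq2 1.42.0, its size factors, all small RNA reads as library size, 2 filters, limma 3.58.1 on log2(TPM + 1) and log2(TPM + 0.5), and each library left out. The fits were also run on simulated counts drawn for each name on its own. These did not copy the change of reads among related names, and no result given here rests on them. Tables and figures were made with Python 3.11.15, pandas 2.3.3, numpy 2.4.6, scipy 1.17.1 and matplotlib 3.10.9. Sums by seed or by identical sequence added nothing, since the 4 members with a sequence have 4 seeds.

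The members and lists were chosen with earlier results of these data known. Named were members past the threshold, the 12 most abundant, the most abundant of each number and arm, those of at least 1 CPM without overlap (at most 6), the 5 in the study's target tables, and all sums. Members outside that rule were named after their values were seen, for the change of names between libraries, for reads at 0 or for their sequence. No 2 libraries held identical counts.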

Additional observations from a re-analysis of the deposited data

Results flagged for a closer look

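In 58 sets of 4 libraries (29 names and sums in each tissue) the highest or lowest library was compared with the others, and in 10 its gap to the nearest library was over the 95% critical value of Dixon's test. Chance gives about 1 in 20 independent sets, but these are not independent, since sums and their own members both count. In 3 of the 10 (miR-297a-3p in iwatMSCs and miR-467h in both tissues) all other libraries had 0 mature reads, which always passes. In 4 of the 10 the library was iwatMSCs library 15, always high. The miR-466 3p sum was 185 CPM there and 36.0 to 53.2 CPM in the other iwatMSCs libraries. Within it, miR-466h-3p was 61.0 CPM, against 20.3 to 22.8 CPM in the others. miR-467d-3p was 21.5 CPM in library 15, against 2.98 to 5.94 CPM, and miR-297a-3p was 0.637 CPM, against 0 in the other iwatMSCs libraries.

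In pMSCs, library 7 stood apart in 3 sets, in both directions. The miR-467 3p sum was 2.94 CPM there, against 5.18 to 5.39 CPM in the other pMSCs libraries, and miR-467d-3p was 2.15 CPM, against 3.53 to 3.76 CPM. miR-466f was high instead, at 7.80 CPM against 4.04 to 4.46 CPM. The other 3 sets rest on very few reads. miR-466d-5p was 0.330 CPM in iwatMSCs library 16, against 0.615 to 0.662 CPM. miR-467h had its only mature reads in pMSCs library 5 (0.144 CPM) and in iwatMSCs library 14 (0.123 CPM).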

How the results depend on the processing

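The count of members called higher (1) was 0 with limma on the deposited TPM of all 8 libraries at either pseudocount, but 1 (miR-466c-3p, adjusted p = 0.00146) with a pseudocount of 1 and no library 7, whose TPM is 1 for every member with reads. It was 0 to 1 when each library was left out. The count called lower (0) was 1 without a filter (miR-466m-5p), 1 at a mean of at least 10 reads (miR-466b-3p), 2 with DESeq2, and 0 to 2 with each library left out. It was 2 without library 13 (miR-466b-3p and miR-466m-5p) and 1 without library 14 (miR-466b-3p). For the sums both counts were 0 in every alternative run. miR-466c-3p was called in 8 of 17 settings, the reported one included, and its edgeR adjusted p ranged from 0.00113 to 0.116 with 1 library left out. Its log2 fold change then ranged from 6.08 to 7.72. The cause was not tested.

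Signs turned only where values were near 0 or rested on few libraries. The miR-466 sum with no arm was 0.015 with DESeq2 size factors, 0.015 without a filter, 0.0057 at a mean of at least 10 reads and 0.014 with DESeq2. On the deposited TPM, miR-466g was -1.71 with a pseudocount of 1, -1.81 with 0.5 and -0.036 with 1 and no library 7, a fit chosen after the data were seen. In that fit miR-669a-3p was 0.72 and miR-297a-3p 0.16. With a pseudocount of 0.5, miR-297a-3p was 0.051 and the miR-297 3p sum 0.050. With each library left out, log2 fold changes ranged from -0.030 to 0.28 for miR-466g, -0.81 to 0.058 for miR-466h-3p, -0.17 to 0.066 for miR-467e-5p, -2.21 to 0.99 for miR-669a-3p and -0.15 to 0.037 for miR-669l-5p. Among sums they ranged from -1.09 to 1.31 for miR-297 3p, -0.42 to 0.045 for miR-297 5p and -0.20 to 0.14 for miR-466 with no arm. No paired analysis was run, because the labels do not tie a library to its animals.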
